A study of Mus musculus with 2 samples.

Results

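The genes described here encode the inhibin and activin system of the ovary: the subunits Inha, Inhba and Inhbb, the activin-binding proteins Fst and Fstl3, the activin receptors Acvr1b, Acvr2a and Acvr2b, and the inhibin co-receptor Tgfbr3. They were chosen by name, and every non-control probe whose RefSeq transcript belongs to 1 of them was taken, which gave 10 probes for 9 genes among 55681 probes and 20660 named genes on the array. Ovaries of 2-week-old mice were cut lengthwise into symmetrical pieces, which were kept for 3 days on culture inserts with tachykinin receptor (TKR) ligands, each at 1 μM. The agonist array carried RNA of ovaries given agonists of TACR1, TACR2 and TACR3 ([Sar9, Met(O2)11]-SP, GR-64349 and the succinylated substance P analogue senktide), and the antagonist array RNA of ovaries given antagonists of the same receptors (L-703,606, GR-94800 and SB218795). The strain of the mice and the number of ovaries behind each RNA are not given in the sources used here, and ovaries without ligand were not analysed here, so a difference cannot be assigned to the agonists or to the antagonists. As each group has a single array, there is no replicate and the values carry no test and no p-value. In whole tissue, fewer cells of a type and less RNA per cell cannot be told apart.

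Inhibins and activins are dimers made from shared subunits. The α subunit (Inha) joined to a β subunit (βA from Inhba or βB from Inhbb) makes an inhibin, whereas β subunits joined to each other make activins. Activin binds a type II receptor (ACVR2A or ACVR2B), which recruits the type I receptor ACVR1B and leads to phosphorylation of SMAD2 and SMAD3. Follistatin (Fst) and follistatin-like 3 (Fstl3) hold activin away from its receptors, and betaglycan (Tgfbr3) lets inhibin compete for the type II receptors. Granulosa cells of growing follicles are the main ovarian source of the subunits, and inhibin restrains the release of FSH from the pituitary.

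In these cultures, the inhibin subunits Inha and Inhbb and the activin trap Fst gave lower signals with the agonists than with the antagonists, whereas the second activin trap, Fstl3, gave a higher signal. The βA subunit Inhba and the receptor Acvr2b differed by less than the error of their spots. Inhbb showed the largest difference of the 9 genes, 2.24-fold lower with the agonists. Each signal is the image analysis software's intensity for 1 spot after background correction, in signal units, and is given with the software's own error estimate, an error of the single spot that says nothing of how ovaries vary. Each probe was printed at 1 spot, and 10 of the 10 probes were well above background on both arrays by the software's criterion.

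The upstream sequences of Inhbb and Fstl3 are shown because these genes had the largest differences in opposite directions and because the transcription start listed for each lies at the edge of the annotated gene. They are the 250 bases before the start in RefSeq's GRCm38.p6 annotation, written 5′ to 3′ on the strand of the gene. Inhbb lies on the minus strand at chr1:119422249-119422498 and Fstl3 on the plus strand at chr10:79777024-79777273. Capitals mark matches on either strand to the letters CAGAC, a SMAD box, or GGGCGG, a GC box.
Inhbb: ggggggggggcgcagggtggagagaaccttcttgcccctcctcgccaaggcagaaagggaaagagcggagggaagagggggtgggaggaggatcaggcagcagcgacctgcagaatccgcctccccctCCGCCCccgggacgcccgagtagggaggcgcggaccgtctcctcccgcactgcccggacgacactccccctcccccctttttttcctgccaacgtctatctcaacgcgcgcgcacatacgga
Fstl3: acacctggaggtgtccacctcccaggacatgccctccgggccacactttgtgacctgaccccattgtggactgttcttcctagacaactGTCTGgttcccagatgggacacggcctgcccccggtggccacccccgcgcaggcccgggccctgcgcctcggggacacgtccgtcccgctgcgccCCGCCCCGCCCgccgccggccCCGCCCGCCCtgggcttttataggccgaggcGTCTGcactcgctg

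The Inhbb window held 0 SMAD boxes and 1 GC box, and the Fstl3 window held 2 SMAD boxes, 161 and 14 bases before the start, and 4 GC boxes that overlap in part. A SMAD box was present in 42.2% and a GC box in 32.7% of the 32851 windows of this length in the table. The letters TGACG (the core of a CRE, in 17.8% of windows), TTCNNNGAA (a STAT site, 7.02%), AAGGTCA (an NR5A site, 4.08%) and TGANTCA (an AP-1 site, 6.75%) had no match in either window, nor in the windows of the 5 other genes listed. GC made up 68.0% of the Inhbb window and 71.2% of the Fstl3 window. The starts listed for Inha, Inhba and Acvr2b lie 532, 7595 and 595 bases inside the annotated gene, so that their windows are not upstream of the whole gene, and they are not shown. Fst and Tgfbr3 were not matched in the table.

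Inha, the subunit that defines an inhibin, had a processed signal of 33223 ± 3322 with the agonists and 45079 ± 4508 with the antagonists (± is the software's error of the spot). Inhbb, the βB subunit of inhibin B and activin B, had 9120 ± 912 with the agonists and 17298 ± 1730 with the antagonists. Inhba, the βA subunit of inhibin A and activin A, had 1008 ± 101 and 939 ± 94.0. These signals are not scaled between the arrays, and the agonist array is the brighter. The Inhba values stand nearly level, while those of Inha and Inhbb are lower with the agonists.

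**Figure D1:**
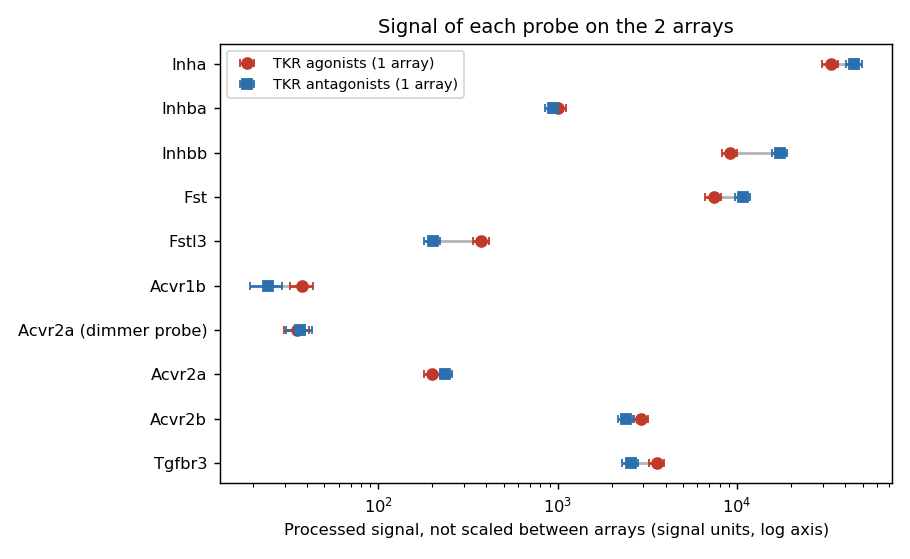
Processed signal of each of the 10 probes on the agonist array (red circles) and the antagonist array (blue squares), in signal units on a log axis, with the software's spot error as bars and without scaling between arrays. Each line joins the 2 values of a probe, and lengths of lines may be compared but levels of different probes may not; Inhbb has the widest gap with the antagonists higher, and Fstl3 the widest with the agonists higher.

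For the comparison between arrays, signals were divided by the 75th percentile of their array (672 signal units for the agonists, 569 for the antagonists) and taken as log2. A log2 ratio is agonists minus antagonists on this scale, and 0.58 stands for 1.5-fold. The subunits had log2 ratios of -1.17 ± 0.20 for Inhbb, -0.68 ± 0.20 for Inha and -0.14 ± 0.20 for Inhba (± is the spot error of the ratio). In fold terms Inhbb was 2.24-fold and Inha 1.60-fold lower with the agonists, and the log2 ratio of Inhba was within its spot error. The software's error holds a fixed share of the signal for bright spots. A direct measure of the spot error is the SD of the log2 ratio between spots of a probe. It had a median of 0.07 and a 95th percentile of 0.26 over the 284 probes printed at 10 spots and well above background at all of them.

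The follistatins went in opposite directions. Fst, the high-affinity activin trap of granulosa cells, had a signal of 7384 ± 738 with the agonists and 10753 ± 1075 with the antagonists, which made it 1.72-fold lower (log2 ratio -0.78 ± 0.20). Fstl3, its secreted relative without heparin-binding sequence, had 374 ± 37.7 with the agonists and 201 ± 20.6 with the antagonists, which made it 1.58-fold higher (log2 ratio 0.66 ± 0.21). The difference between these log2 ratios was 1.44 ± 0.29, and it was 1.07 with another background correction (normexp).

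The receptors showed smaller differences, none as large as 1.5-fold. Acvr1b, the type I activin receptor also called ALK4, was close to background, with 37.7 ± 5.39 signal units with the agonists and 24.1 ± 4.80 with the antagonists, and its log2 ratio was 0.40 ± 0.35. Acvr2a, a type II receptor, was measured by 2 probes. The brighter gave 199.5 ± 20.4 and 234 ± 23.8, a log2 ratio of -0.47 ± 0.21, and the dimmer 35.3 ± 5.66 and 36.6 ± 5.91, a log2 ratio of -0.29 ± 0.33. Both Acvr2a probes thus had the same sign, and only that of the brighter probe exceeded its spot error.

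Acvr2b, the other type II receptor, had signals of 2907 ± 291 with the agonists and 2405 ± 241 with the antagonists and a log2 ratio of 0.03 ± 0.20. Tgfbr3 had 3563 ± 356 and 2545 ± 255, with a log2 ratio of 0.24 ± 0.20. After scaling, these receptors therefore stood near level or slightly higher with the agonists, against the lower Inha whose product Tgfbr3 binds. The difference between the log2 ratios of Tgfbr3 and Inha was 0.93 ± 0.29.

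**Figure D2:**
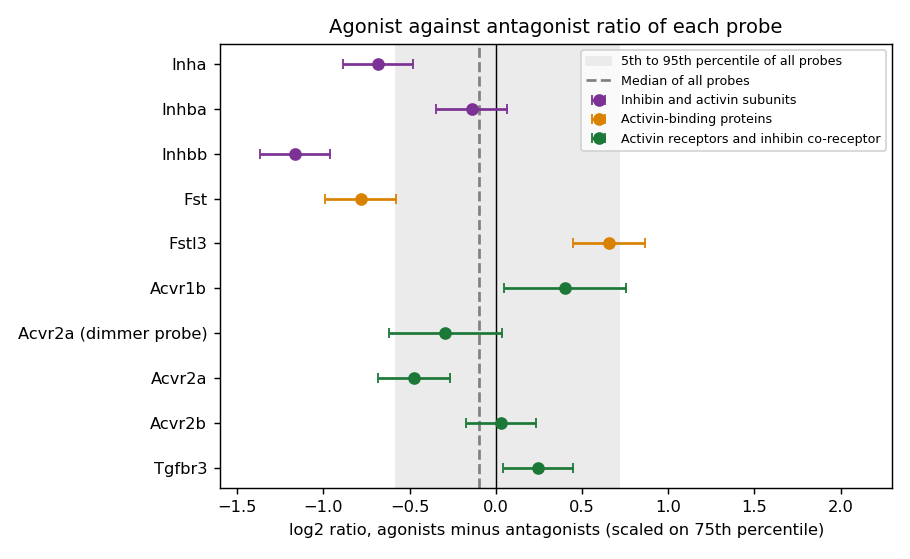
log2 ratio of each probe, agonists minus antagonists, after scaling on the 75th percentile, with the spot error as bars; colours give the role of the gene, the grey band the 5th to 95th percentile of all 33073 measured probes (-0.58 to 0.72), and the dashed line their median of -0.10. Inhbb, Fst and Inha lie to the left of the band, Fstl3 at its right side and the receptors inside it.

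Of the 9 genes, 3 were at least 1.5-fold lower with the agonists (Inha, Inhbb and Fst) and 1 at least 1.5-fold higher (Fstl3). The same held for 4.90% (lower) and 6.95% (higher) of the 33073 probes that both arrays measured well above background. At 2-fold, 1 gene (Inhbb) was lower and 0 higher, against 0.705% and 2.69% of all probes. Inha, Inhbb and Fst are among the brighter probes, and of the 13336 probes whose mean signal reached the 75th percentile, 3.11% were 1.5-fold lower or more and 0.232% were 2-fold lower or more. The log2 ratio was at or below that of Inhbb in 0.375% of the 33073 probes, at or below that of Fst in 1.90% and at or below that of Inha in 3.09%. It was at or above that of Fstl3 in 5.87%. The median over the 9 genes, -0.14, lay close to that of all probes, -0.10, since 5 genes were below 0 and 4 above.

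**Figure D3:**
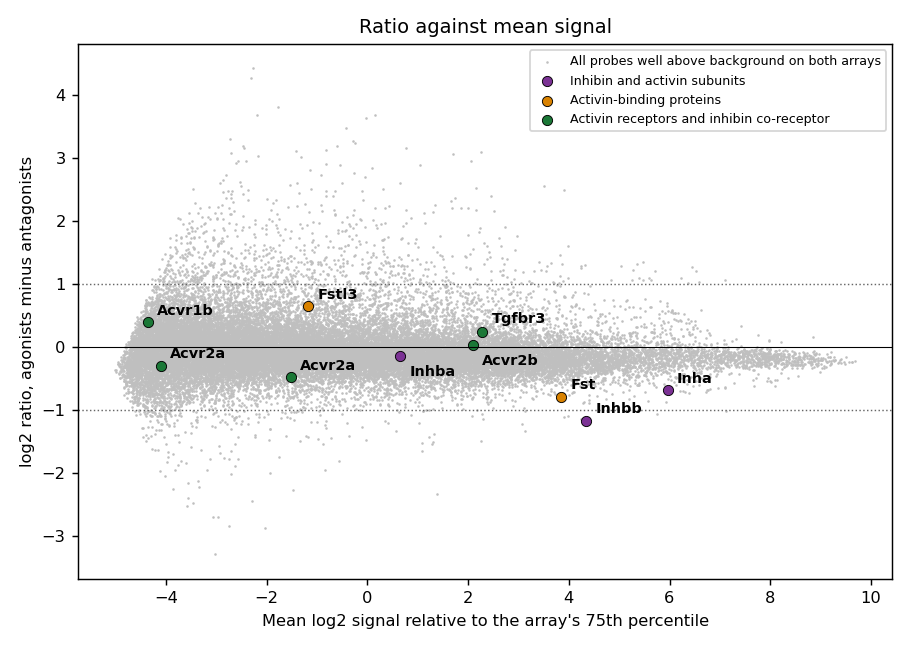
log2 ratio, agonists minus antagonists, against the mean log2 signal relative to the array's 75th percentile, for the 33073 measured probes (grey) and the 10 probes of the inhibin and activin genes (coloured by role, named). Dotted lines mark 2-fold; Inhbb lies below the lower line at a signal where few grey points do, and Acvr1b and the dimmer Acvr2a probe lie in the dim range, where the grey points spread more.

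The level set by scaling decides how many genes pass 1.5-fold, because it moves all log2 ratios together. All probes together had a median log2 ratio of -0.10 here, of 0.14 without any scaling, and of 0.18 when the arrays were scaled on spike-in controls (RNAs of known amount added at labelling). Relative to the median of all probes, the log2 ratio was -1.07 for Inhbb, -0.69 for Fst, -0.58 for Inha, -0.04 for Inhba and 0.75 for Fstl3. Over 9 ways of scaling or correcting the background, Inhbb was at least 1.5-fold lower in 9 of 9, with log2 ratios between -1.22 and -0.89. Fst was at least 1.5-fold lower in 7, between -0.84 and -0.51, and Inha in 3, between -0.74 and -0.41, so that Inha is below 0 in 9 of 9 but mostly short of 1.5-fold. Fstl3 was at least 1.5-fold higher in 8 of 9, between 0.36 and 0.93, the lowest value being with the normexp background correction. The highest Fstl3 value was on the spike-in scale, where it exceeded in size the log2 ratio of Inhbb (-0.89). Inhba lay between -0.20 and 0.14, Acvr2b between -0.02 and 0.31 and Acvr1b between -0.05 and 0.68, and each of these had both signs.

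**Figure D4:**
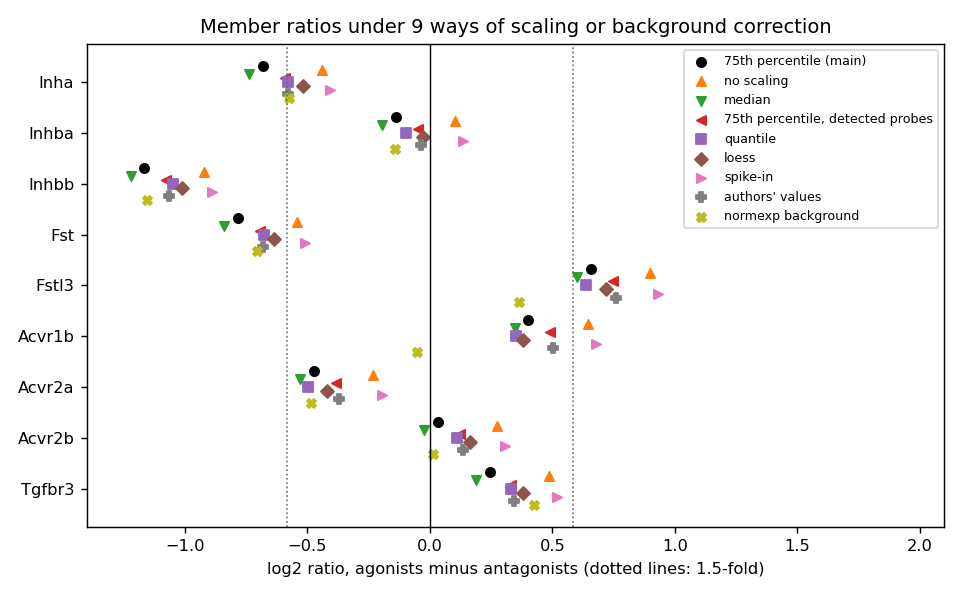
log2 ratio of each of the 9 genes, agonists minus antagonists, under 9 ways of scaling or background correction (symbols), with dotted lines at 1.5-fold. Inhbb lies left of the lower line with each symbol, Fst with 7 and Inha with 3, while Inhba, Acvr2b and Acvr1b have symbols on both sides of 0.

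Differences between the log2 ratios of a pair of genes do not depend on a scaling that multiplies a whole array. The β subunits differed from each other by 1.03 ± 0.29 on the log2 scale (Inhba minus Inhbb), which corresponds to a 2.04-fold shift of the βB signal against the βA signal between the arrays. Over the alternatives this difference stayed between 0.95 and 1.03. Inha lay between them, 0.48 ± 0.29 above Inhbb and 0.54 ± 0.29 below Inhba. Fst was closest to Inha, with a difference of -0.10 ± 0.29 that did not exceed its spot error. Among the type II receptors, Acvr2b minus Acvr2a gave 0.50 ± 0.29.

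Other genes of the activin pathway were taken from a list of 37, of which 32 were well above background on both arrays. Among these 32, 5 (Ccn2, Pmepa1, Tgfbi, Junb and Pcsk5) passed 1.5-fold towards the agonists and 1 (Fshr) towards the antagonists, against 6.95% and 4.90% of all probes, and their median log2 ratio was -0.04. The SMAD proteins and their partners stayed within 1.5-fold: Smad2, which carries the activin signal, had a log2 ratio of -0.05. Its close relative Smad3 had -0.16 with its brighter probe and -0.43 with the other. The shared partner Smad4 had -0.37 and -0.14, so the order of Smad3 and Smad4 depends on the probe. Foxl2, a granulosa transcription factor that acts with SMADs on Fst, had 0.32 with its brighter probe and -0.37 with the other, so its direction is unsettled. Of the other ligands and receptors, 0 of 8 passed 1.5-fold, with log2 ratios between -0.44 and 0.28. They include Tgfbr1, the type I receptor of TGF-β, at 0.16, and Acvr1, a type I receptor of BMPs and activins, at -0.01 and, with its other probe, 0.12. Inhbc and Mstn were well above background on neither array, and Igsf1 on the agonist array only.

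Among the genes known to be regulated through SMAD2 and SMAD3, 3 of 5 passed 1.5-fold towards the agonists and 1 towards the antagonists, against the same shares of all probes (6.95% and 4.90%). Ccn2, a matricellular protein also called CTGF, had a signal of 5100 with the agonists against 834 with the antagonists, a 5.17-fold difference (log2 ratio 2.37 ± 0.20). Tgfbi, a matrix protein induced by TGF-β, had 0.88 ± 0.20, and Junb, a subunit of AP-1, had 0.81 ± 0.35 at a signal close to background. Ccn2 and Junb also respond to many other signals. The exceptions were Cyp19a1, the aromatase gene, at 0.37 ± 0.21, and Fshr, the FSH receptor, at -0.73 ± 0.21 or 1.66-fold lower, with signals of 195 and 274.

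Of the 9 measured inhibitors of SMAD signalling, 1 passed 1.5-fold. This was Pmepa1, a TGF-β-induced protein that holds back SMAD2 and SMAD3, with a log2 ratio of 1.02 ± 0.20 and 1.02 with its other probe. The feedback inhibitor Smad7, itself a well-known SMAD target, had -0.13, and Skil, a nuclear corepressor, had 0.01. Among the proprotein convertases, which cleave the precursors of the subunits, Pcsk5 was 1.55-fold higher with the agonists, while Pcsk6 had a log2 ratio of -0.53 and Furin 0.09.

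**Figure D5:**
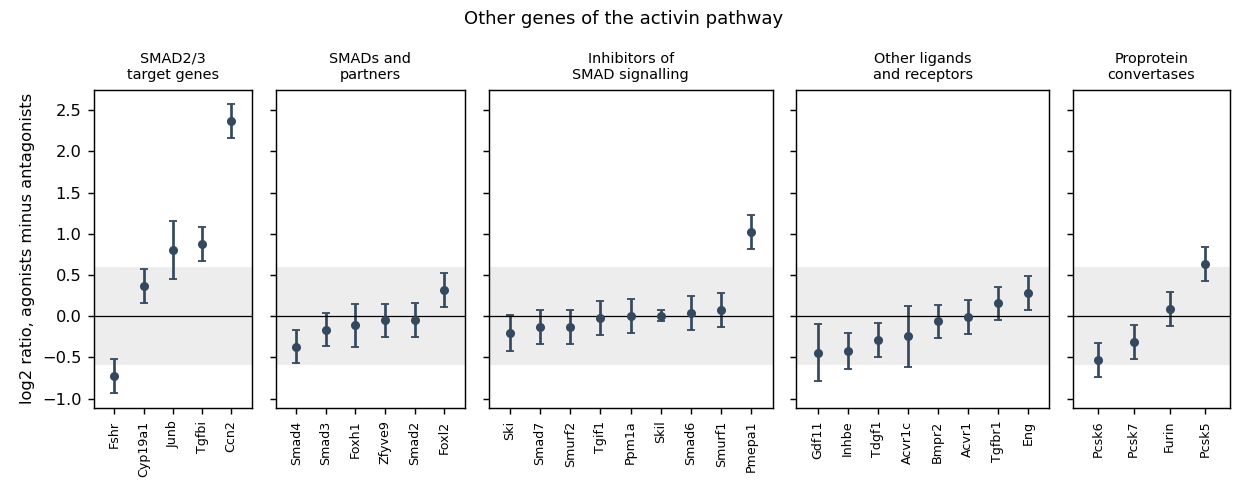
log2 ratio, agonists minus antagonists, of the 32 other genes of the activin pathway that were well above background on both arrays, in 5 groups, with the spot error as bars; the grey band spans 1.5-fold in either direction. Ccn2, Tgfbi, Junb, Pmepa1 and Pcsk5 lie above the band and Fshr below it, while the SMADs and the other ligands and receptors lie within it.

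Marker genes of ovarian cell types were set beside these values. Of all 33073 measured probes, 63.1% had a log2 ratio below 0, and the median was -0.10. At least 1.5-fold lower were 4.90% of these probes, and at least 1.5-fold higher 6.95%. The granulosa list had a median log2 ratio of -0.22, with 7 of 10 genes below 0: Fshr (-0.73), Amh (-0.67), Nr5a2 (-0.47), Hsd17b1 (-0.47), Esr2 (-0.25), Gja1 (-0.19) and Kitl (-0.13) were lower and Amhr2 (0.38) and Cyp19a1 (0.37) higher. Foxl2 had 0.32 with the brighter probe counted here and -0.37 with the other. Without Foxl2, a choice made after seeing the data and for no other list, 7 of 9 genes were below 0 and the median was -0.25. Of the 10, 2 were at least 1.5-fold lower and 0 higher, and Inhbb had a lower log2 ratio than each of the 10. Fst (-0.78 ± 0.20) lay within its spot error of Fshr, and Inha (-0.68 ± 0.20) lay between Fshr and Amh. The proliferation list was lower with the agonists in 10 of 10 genes, with a median of -0.53 and values between -0.77 and -0.33 for the brightest probe of each gene, although another probe of Cdk1 had 0.03. Markers of other cell types were mostly higher with the agonists: 6 of 6 for the surface epithelium (median 1.01), 4 of 4 for macrophages (0.97), 4 of 4 for smooth muscle (0.71), 4 of 5 for endothelium (0.48) and 5 of 6 for stroma (0.41). The oocyte list was level, with a median of 0.01, and the theca list split, with 2 of 4 genes higher and a median of -0.10. These tallies use the brightest probe of a gene. Of the 11 marker genes with another probe well above background on both arrays, 5 had one of opposite sign: Foxl2, Cdk1, Kdr (endothelium, -0.27 and 0.38), Csf1r (macrophages, 0.15 and -0.09) and Star (theca, -0.40 and 0.01). The summed signal of a list, in multiples of the array's 75th percentile, came to 123 (agonists) and 113 (antagonists) for the granulosa list, and to 91.2 and 87.8 without Foxl2. Bright probes weigh most in such a sum, so it gives no level of a cell type. The sums were 102 and 145 for proliferation, 37.1 and 17.4 for surface epithelium, 11.4 and 8.99 for macrophages, 37.8 and 23.1 for smooth muscle, 60.5 and 54.2 for endothelium, 368 and 310 for stroma, 236 and 245 for oocytes and 85.1 and 84.1 for theca. The luteinising hormone receptor Lhcgr was well above background on neither array, and Tek (endothelium) and Des (smooth muscle) on the agonist array only. The part of these cell types in the differences of Inha, Inhbb, Fst, Fstl3 and the SMAD target genes was not tested.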

How the data were processed

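RNA from cultured ovaries was labelled with Cy3 and hybridised to SurePrint G3 Mouse GE 8x60K arrays, 1 array for the TKR agonists and 1 for the TKR antagonists, both on 1 slide. The authors deposited the intensity of every spot from Agilent Feature Extraction 10.10.1.1 after its background correction and detrending, with no scaling between arrays, together with its flags and error estimates. Per the file headers the flags are other values than measurements and mark outliers, saturation (0 spots on either array) and signal well above background. The authors' table of processed intensities equals the same signal times a constant for each array and was used as an alternative.

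Control spots were removed, log2 signals were reduced by the array's 75th percentile (672 and 569 signal units), outlier spots were dropped and spots of a probe were averaged. Probes counted as well above background when more than 50% of their spots did. Probes were named through RefSeq transcripts of GRCm38.p6 (27235 of 55681 probes), and the sequences are those of RefSeq. A gene's value is that of its brightest probe above background. Genes were counted at 1.5-fold and 2-fold. Members, lists and thresholds were chosen with earlier results of these data known. All 9 members are described, pathway genes past 1.5-fold are named, and so are the granulosa markers; other pathway genes were named after their values were seen. A gene of the list of SMAD2 and SMAD3 targets was left out of its counts and is not reported here. No genes of like pattern were sought, as 2 arrays give 1 ratio per gene. Alternatives were 7 other scalings, normexp (offset 50, on the median spot signal), loess span 0.3, other summaries and other filters. Python 3.11.15, numpy 2.4.6, pandas 2.3.3, R 4.3.3 and limma 3.58.1 were used, and the calculation was tested on simulated data. The number of arrays limits the precision, and no spread between ovaries can be estimated.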

Additional observations from a re-analysis of the deposited data

How the results depend on the processing

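No paired analysis was possible because each group has 1 array. Of 114 values of the 9 genes under the alternatives, 96 moved by less than their spot error and 18 by more, and none that was past 1.5-fold changed sign. Sign changes were those of Inhba (0.10 without scaling, 0.14 on the spike-in scale), Acvr2b (-0.02 with scaling on the median) and Acvr1b (-0.05 with normexp).

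The number of the 9 genes at least 1.5-fold lower, 3, was 1 without scaling, 1 on the spike-in scale (Inhbb in each) and 1 at 2-fold. It was 2 (Inhbb and Fst) with quantile normalization, loess, the authors' values and normexp. The number higher, 1, was 2 without scaling and on the spike-in scale, where Acvr1b joined Fstl3, and 0 with normexp, at 2-fold and over bright probes alone (mean signal from the 75th percentile up), where Fstl3, Acvr1b and Acvr2a were left out. The median over the genes, -0.14, was 0.10 without scaling, 0.14 on the spike-in scale and -0.41 over the 6 bright genes.

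The numbers of all probes at least 1.5-fold lower and higher, 1620 and 2299, were 502 and 4301 without scaling, 434 and 4720 on the spike-in scale, 606 and 1230 after normexp, 5223 and 6801 when dim probes were kept, 415 and 598 over bright probes, and 233 and 890 at 2-fold. The number lower was 1078 with scaling on detected probes and 1005 with the authors' values. The share of higher among them was 58.7% with the 75th percentile, 48.0% with the median, 72.7% with detected probes, 74.7% with the authors' values, 66.7% with loess, 67.0% with normexp, 89.5% without scaling and 91.6% on the spike-in scale, and it was 79.3% at 2-fold. Scaling by a constant moves every ratio by the same amount. For normexp and loess the cause was not tested. Signal over background limits Acvr1b and the dimmer Acvr2a probe.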
